A study of Mus musculus with 6 samples.

Results

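miR-126 is the microRNA (miRNA) of the endothelial gene Egfl7. Its 4 mouse mature sequences, both arms of miR-126a and both arms of miR-126b, were taken by name from the 1978 mouse entries of a table of miRNA read counts. Small RNA was sequenced from livers of mice injected with AAV9, an adeno-associated virus used to carry genes into tissues. Both groups received a vector with Cre recombinase behind the promoter of Tnnt2, the cardiac troponin T gene, a promoter active in heart muscle cells. The Cre-miR122 group (3 libraries) received a vector that also bore an element named after miR-122, and the Cre group (3 libraries) received the vector without it. Strain, age, dose and time after injection are not stated in the labels, nor whether animals were pooled. Only the counts of Cre-miR122 replicate 2 were used, and the remaining 5 libraries were not used here. What follows describes miR-126 within that library, without replicates and without a comparison of the vectors.

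miR-126 is made from an intron of Egfl7, which encodes a secreted protein of blood vessel endothelium. Drosha and Dicer cut a hairpin RNA into a short duplex, and either strand (the 5p or the 3p arm) can be loaded into Argonaute. The loaded strand finds mRNAs mainly by its seed, bases 2 to 8, so a start moved by 1 base gives a different seed. In mouse endothelium miR-126-3p is known for repressing Spred1 and Pik3r2, inhibitors of VEGF signalling, and it is needed for vessel integrity. The 5p arm is known for repressing Dlk1 in mouse endothelial cells.

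The hairpins are shown first because miR-126a and miR-126b lie opposite each other on the same DNA, with the mature arms in capitals (T stands for U).
Mir126a hairpin: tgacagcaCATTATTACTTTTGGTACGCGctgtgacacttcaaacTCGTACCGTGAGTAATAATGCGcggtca
Mir126b hairpin: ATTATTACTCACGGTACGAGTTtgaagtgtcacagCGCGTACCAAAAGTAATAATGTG

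The mature members, with their seeds in capitals, are mmu-miR-126a-3p with 59356 reads, mmu-miR-126a-5p with 1152, mmu-miR-126b-5p with 0 and mmu-miR-126b-3p with 0.
miR-126a-3p: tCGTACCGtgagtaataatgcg
miR-126a-5p: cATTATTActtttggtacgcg
miR-126b-5p: aTTATTACtcacggtacgagtt
miR-126b-3p: cGCGTACCaaaagtaataatgtg

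The 4 seeds differ from each other, and 0 other mouse sequences of the table carry any of them. Both hairpins and 3 of the 4 mature members were also found, with identical sequence, in RefSeq on GRCm38.p6.

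On the mm10 (GRCm38) build, Mir126a (ENSMUSG00000065540.1) spans chr2:26591357-26591429 on the plus strand, the strand of Egfl7 (ENSMUSG00000026921.18, chr2:26580014-26593120). Of the annotated Egfl7 transcripts that span the hairpin, 8 hold it in an intron, and 1, a transcript with a retained intron, holds it in an exon. In the coding transcript Egfl7-201 the intron lies between exons 7 and 8. The hairpin also lies in an intron of Gm20532, an overlapping gene on the same strand. miR-126a-5p occupies chr2:26591365-26591385 and miR-126a-3p chr2:26591402-26591423. Mir126b (ENSMUSG00000105799.1) spans chr2:26591363-26591420 on the minus strand, and all of its 58 bases lie inside Mir126a. miR-126b-5p overlaps the place of miR-126a-3p by 19 nt, and miR-126b-3p overlaps that of miR-126a-5p by 21 nt.

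**Figure D1:**
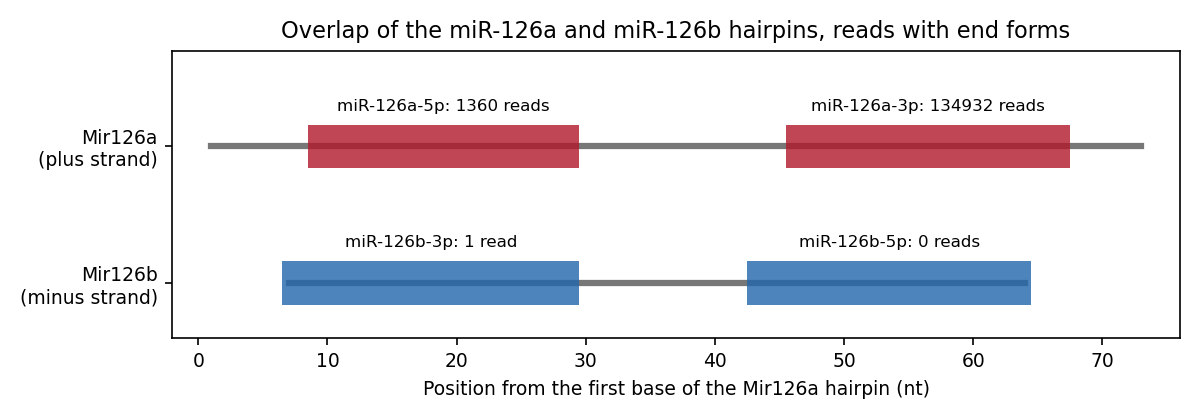
Map of the Mir126a hairpin (plus strand, above) and the Mir126b hairpin (minus strand, below), with grey lines for hairpins, bars for mature arms, and the x axis in nt from the first base of Mir126a. Each arm bears its reads with end forms: 134932 and 1360 for the miR-126a arms, against 1 and 0 for the miR-126b arms.

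The library held 8163802 reads over distinct miRNA sequences of all species, of which 6661069 were counted for mouse entries. Intervals in parentheses are exact 95% intervals. They cover the counting error of reads alone, and since reads carry no molecular identifiers, PCR copies count more than once. The liver label was checked with miRNAs of known cell types, in reads that include end forms (defined in the next paragraph). The hepatocyte miRNAs miR-148a-3p, miR-122-5p and miR-192-5p held 48.3%, 8.53% and 1.02% of these reads. The vector given here bore an element named after miR-122, and any effect of it on miR-122-5p was not tested. The muscle miRNAs miR-1a-3p, miR-206-3p and miR-133a-3p held 13.3%, 1.10% and 0.145%. Vessels of liver and muscle both contain endothelium, and the part of muscle RNA in the miR-126 level was not tested.

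miR-126a-3p was the main product of the locus. Its mouse entry held 59356 reads, which is 0.891% of mouse reads (0.884 to 0.898), rank 14 among 1963 distinct mouse sequences. It stood between miR-378a-3p with 60512 reads and miR-127-3p with 46251. A read that starts or ends at another base of the hairpin was counted for another species' entry where that entry has its exact sequence, and such entries are called end forms here. With its 8 end forms miR-126a-3p reached 134932 reads, or 1.68% (1.67 to 1.69) of the reads of mouse entries and all end forms. It then ranked 7, after miR-143-3p with 162854 reads and before miR-378a-3p with 123839. More than 1 in 2 reads of the arm, 56.0% (55.7 to 56.3), thus stood outside the mouse entry.

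miR-126a-5p, the other strand of the duplex, was much lower. Its mouse entry held 1152 reads, 0.0173% of mouse reads (0.0163 to 0.0183), rank 70. With 2 end forms it held 1360 reads and ranked 92, after miR-322-3p with 1416 and before miR-106b-3p with 1339. Arm use therefore leaned to 3p, with 99.2 reads of miR-126a-3p per read of miR-126a-5p (94.1 to 105). By mouse entries alone the ratio was 51.5 (48.6 to 54.7), since end forms added more to the 3p arm than to the 5p arm. The table records 8 end forms for the 3p arm and 2 for the 5p arm, so the ratio with end forms also depends on which forms have an entry. Adapter ligation favours some ends over others, so a ratio of reads is not a ratio of molecules.

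Among 23 miRNAs with both arms in the table and at least 10000 reads over them, 2 had no read on the minor arm. In the other 21, reads of the major arm per read of the minor arm had a median of 865. With end forms counted, miR-126a ranked 16 of these 21 from the most one-sided, next to miR-379 with 201 (176 to 230) and miR-127 with 51.0 (48.7 to 53.4). These neighbours depend on the end forms. By mouse entries alone miR-127 had 46251 reads on 3p and 100 on 5p, more one-sided than miR-126a with 59356 and 1152. miR-379 had 34129 on 5p and 23 on 3p. In miR-199a the major arm changed, with 3574 reads on 5p and 1794 on 3p. Its minor arm was thus better represented than that of most of these 21. The pairs leave out miR-1a, let-7a, let-7c, let-7f, miR-26a, miR-30c and miR-194, which also had an arm with at least 10000 reads. miR-199a and miR-199b share a 3p sequence, so its 9500 reads count in both pairs. The ratios of the most one-sided pairs rest on few minor-arm reads, 1 each for miR-381 and miR-192.

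**Figure D2:**
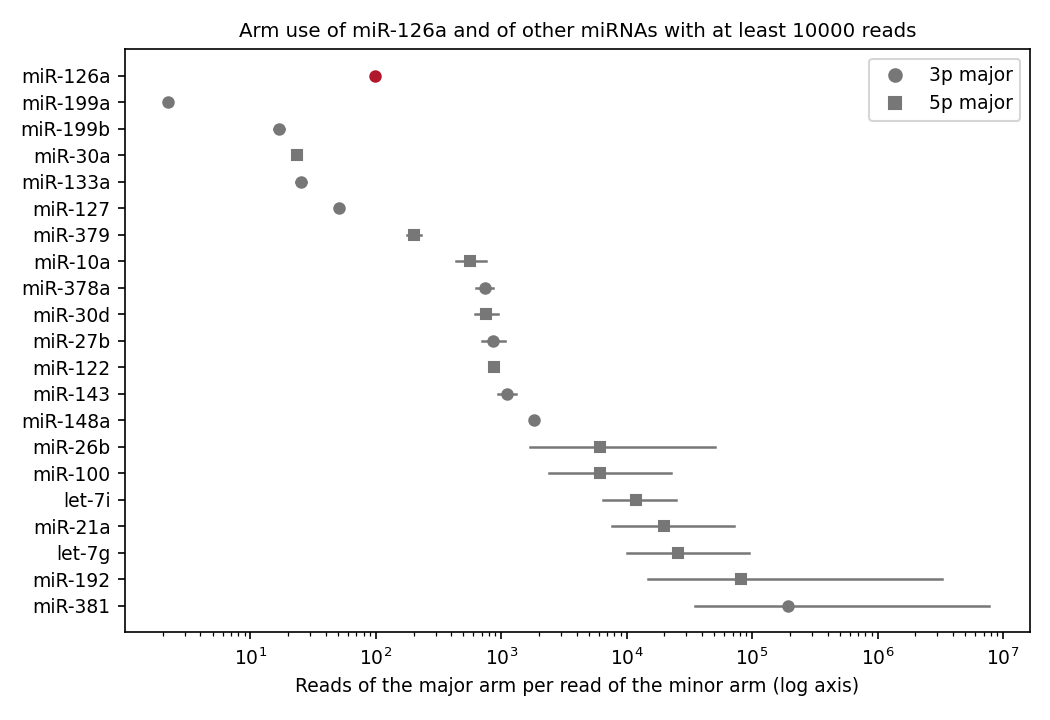
Reads of the major arm per read of the minor arm on a log axis, with exact 95% intervals as lines, for miR-126a (red, top) and the other compared miRNAs with at least 10000 reads and reads on both arms (grey). Reads include end forms, and circles have 3p and squares 5p as the major arm. miR-126a stands at 99.2, between miR-127 at 51.0 and miR-379 at 201.

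miR-126b, on the opposite strand, was near the limit of detection. The mouse entries of miR-126b-5p and miR-126b-3p each had 0 reads, with an interval that reaches up to 5.54e-05% of mouse reads. The floor of 3 reads is 4.5e-05% of mouse reads. The table holds 5 distinct sequences from this strand of the hairpin, and 3 of them are other species' entries. A single read fell on 1 of these 5, a snake entry that lies inside the Mir126b hairpin and is 2 nt shorter than miR-126b-3p. It is shown because it is also the exact reverse complement of miR-126a-5p.
1 read, minus strand: cgcgtaccaaaagtaataatg
The reverse complement of miR-126a-3p is an entry as well and had 0 reads. The minus strand thus had 1 read against 136292 on the plus strand, 0.000734% of both (1.86e-05 to 0.00409). The single read is below the floor of 3.

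The start of miR-126a-3p was not fixed. Reads with the annotated start made up 88.9% (88.7 to 89.0) of the arm, over 5 recorded ends. A start 1 nt earlier, which takes in the preceding C of the hairpin, held 12874 reads or 9.54% (9.38 to 9.70). A start 1 nt later held 2152 reads or 1.59% (1.53 to 1.66). Earlier starts outnumbered later ones 5.98 to 1 (5.71 to 6.26), over recorded 3′ ends that differ between them. At the 3′ end of the mouse entry, recorded for both, the ratio was 4.84 to 1 (4.62 to 5.08). The leading forms of the 3 starts are shown because each has its own seed, again in capitals.
start 1 nt earlier, 10227 reads: cTCGTACCgtgagtaataatgcg
annotated start, 59356 reads: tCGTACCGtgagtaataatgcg
start 1 nt later, 2112 reads: cGTACCGTgagtaataatgcg

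In all, 15026 reads or 11.1% (10.97 to 11.3) of miR-126a-3p carried a seed other than the annotated one. No other mouse sequence of the table has either shifted seed. The earlier-start reads alone, at 12874, were more than the 1360 of the whole 5p arm. For miR-126a-5p the table records 3 forms with 1 start, so shifts of its seed were not measured.

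The 3′ end varied more than the start. Among reads with the annotated start, 49.5% (49.2 to 49.8) ended where the mouse entry ends. The form 1 nt shorter held 40719 reads or 34.0% (33.7 to 34.2), and the form 2 nt shorter held 19617 or 16.4% (16.2 to 16.6). Beyond these the reads fell off on both sides, with 180 reads 3 nt shorter and 34 reads 1 nt longer.
1 nt shorter: tCGTACCGtgagtaataatgc
2 nt shorter: tCGTACCGtgagtaataatg

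These shortened forms keep the annotated seed, so 3′ variation did not change it. The recorded forms of miR-126a-5p were more uniform, with 84.7% (82.7 to 86.6) of 1360 reads on its 21-nt mouse entry. Of the rest, 170 reads were 1 nt shorter and 38 reads 1 nt longer. No shorter form of this arm has an entry, so fewer ends could be seen than for miR-126a-3p.

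The 3′ ends differed between the starts among the recorded forms. With the earlier start, reads at the mouse end outnumbered those 1 nt shorter 3.86 to 1 (3.70 to 4.03), against 1.46 to 1 (1.44 to 1.48) with the annotated start. The earlier start therefore held 14.7% (14.44 to 14.96) of both starts at the mouse end and 6.10% (5.88 to 6.33) at the end 1 nt shorter. Of the reads at the mouse end or 1 nt past it, 1.86% (1.33 to 2.52) went past it with the later start, against 0.0572% (0.0396 to 0.0800) with the annotated start. The intervals do not overlap, but they cover counting error in 1 library only. For each of the 3 starts the form at the mouse end had the most reads, in RNAs of 23, 22 and 21 nt for the earlier, annotated and later start. Of the 15 combinations of these 3 starts and 5 ends, 9 have an entry, and reads of the others were not counted.

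**Figure D3:**
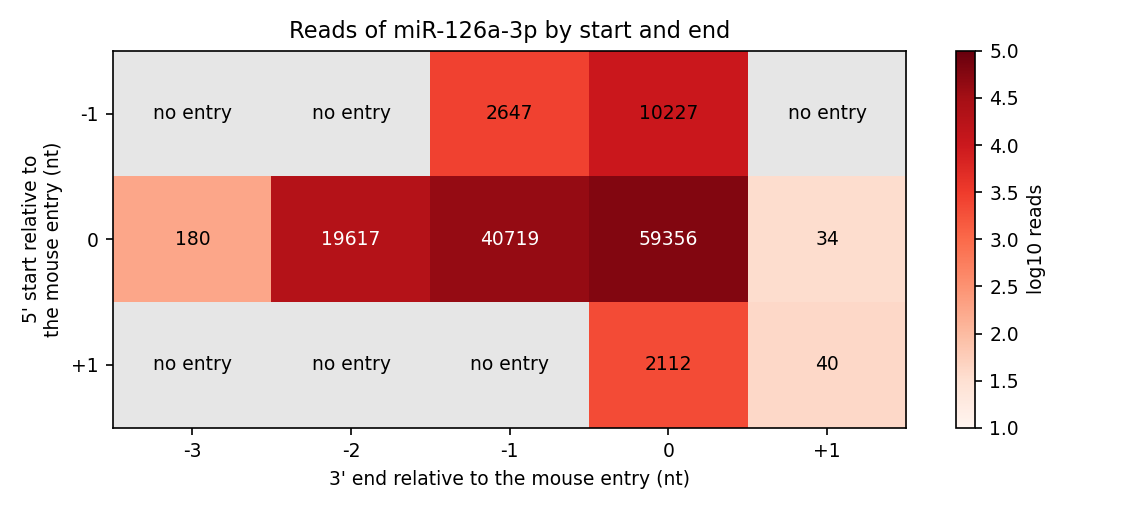
Reads of miR-126a-3p by 5′ start (rows) and 3′ end (columns), in nt from the ends of the mouse entry, with colour for log10 reads and the reads printed in each cell. Grey cells have no entry in the table; the mouse entry (59356) and the forms 1 and 2 nt shorter (40719 and 19617) hold most reads.

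The nested forms of miR-126 also bear on how reads were counted. In 8 of 15 pairs in which a shorter form is the start of a longer one, the longer form had more reads. Counting each read for every entry it contains gives 0 such pairs. Reads were therefore taken as counted for the entry equal to the whole read, but a rule that gives each read to its best or longest entry cannot be told apart from this. Under such a rule a form could also hold reads with ends that the table does not list.

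miR-126a-3p was set beside the other 27 arms with at least 10000 reads including end forms, as a description. Its mouse entry held 44.0% (43.7 to 44.3) of the arm, against a median of 77.1% over the 28 arms, between miR-122-5p at 34.5% and miR-127-3p at 48.2%. Of its reads with the annotated start 50.5% (50.2 to 50.8) ended early, against a median of 11.99%, between miR-127-3p at 51.8% and miR-122-5p at 37.4%. Hardly any ended late, 0.0284% against a median of 3.28%.

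Its share of shifted starts came after miR-133a-3p at 44.9% and miR-10a-5p at 26.4% and was followed by miR-192-5p at 1.86%. The shifted reads counted in these arms all had later starts, whereas those of miR-126a-3p had mostly earlier ones. For miR-192-5p the only recorded shifted start is a later one, so earlier starts could not be counted there. Among the 28 arms, the next highest share of earlier starts was 0.951%, in miR-381-3p. Arms with fewer reads, miR-101a-3p among them, were not compared. In miR-101a-3p a recorded change of G to A lies at base 10 of the mouse entry, which had 1167 reads. It lies at base 11 of end forms with 2068 and 1920 reads, the place it would take after a start 1 nt earlier. Earlier starts may thus be more common in miR-101a-3p than in miR-126a-3p. Only 12 of the 28 arms have an entry with a shifted start. miR-126a-3p has 4 such entries and 8 end forms in all, against a median of 3 end forms, so more of its variation could be seen.

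**Figure D4:**
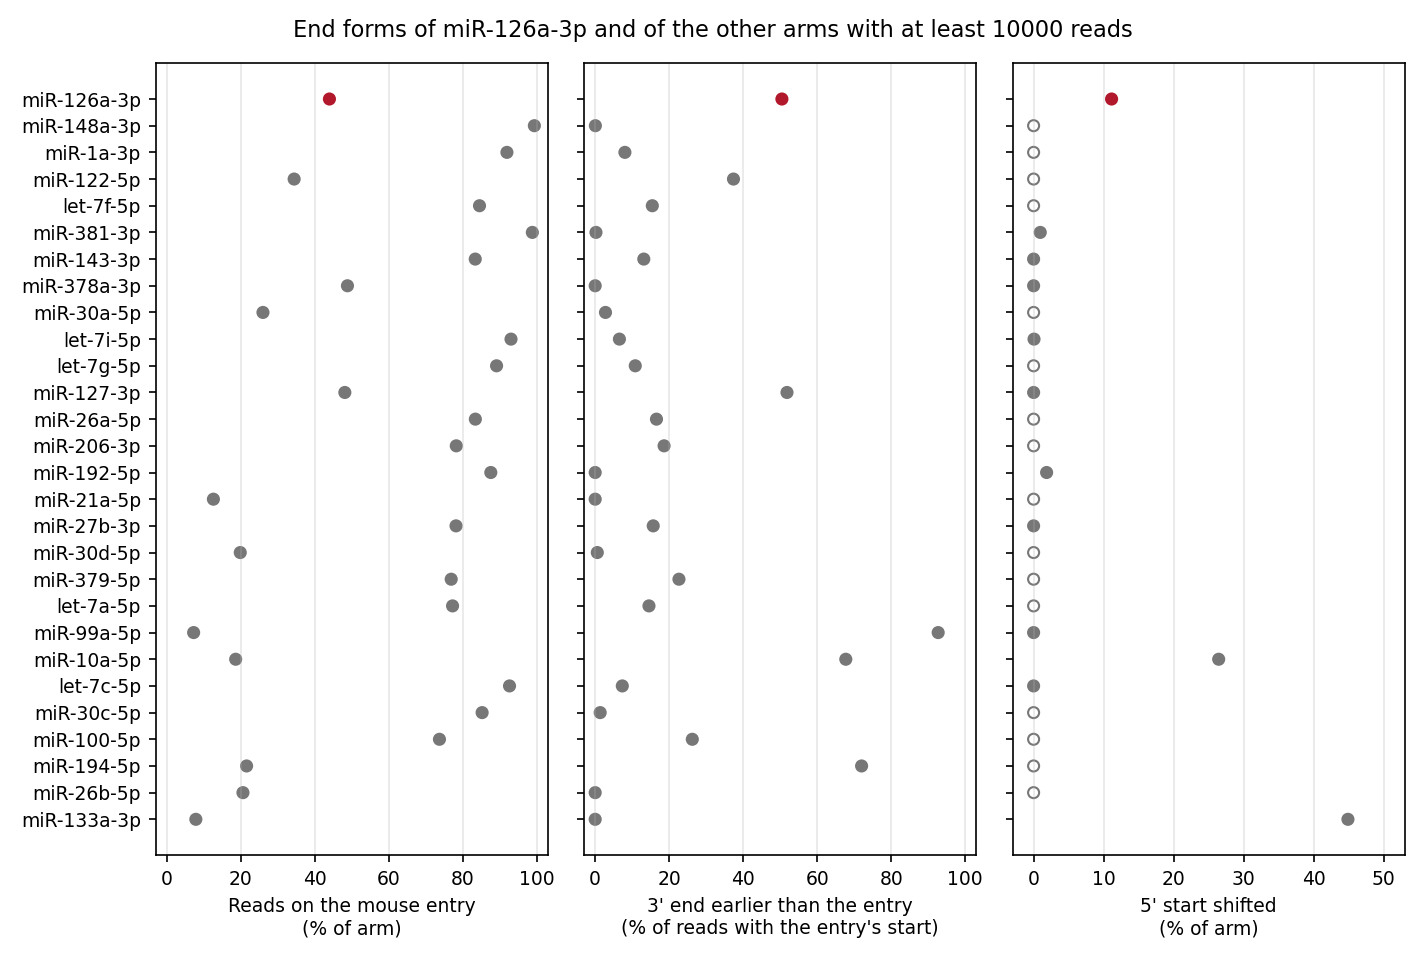
Reads on the mouse entry, reads ending early and reads with a shifted start, each in percent, for miR-126a-3p (red, top) and the other arms with at least 10000 reads (grey, by falling reads). Open circles mark arms for which no shifted start is recorded; miR-126a-3p stands at 44.0%, 50.5% and 11.1%.

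Forms with another last base were also recorded. Fish entries hold miR-126a-3p with G22A, counted from 1 at the 5′ end, and this form is shown with the changed base in capitals.
G22A form, 1936 reads: tcgtaccgtgagtaataatgcA
It made up 3.16% (3.02 to 3.30) of itself and the mouse entry. The same letters are the form 1 nt shorter with an A added, and against that form they made up 4.54% (4.34 to 4.74). A changed base and an added base give the same sequence and cannot be told apart.

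A change inside the sequence was much rarer. T19A in the 21-nt form, the entry of sea squirts, had 24 reads, 0.0589% (0.0377 to 0.0876) of both forms.
T19A form, 24 reads: tcgtaccgtgagtaataaAgc

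Changes of 1 base were recorded for other miRNAs too, in forms with at least 1000 reads. Over 22 pairs with a changed last base the median share was 0.370%, and G22A of miR-126a-3p was the fifth highest, between T22C of miR-1a-3p with 7.93% and G22A of miR-206-3p with 2.89%. The highest was G22T in an end form of miR-101a-3p with 52.1%. Over 92 pairs with a change before the last 2 bases the median was 0.00147% and the highest 0.721%.

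**Figure D5:**
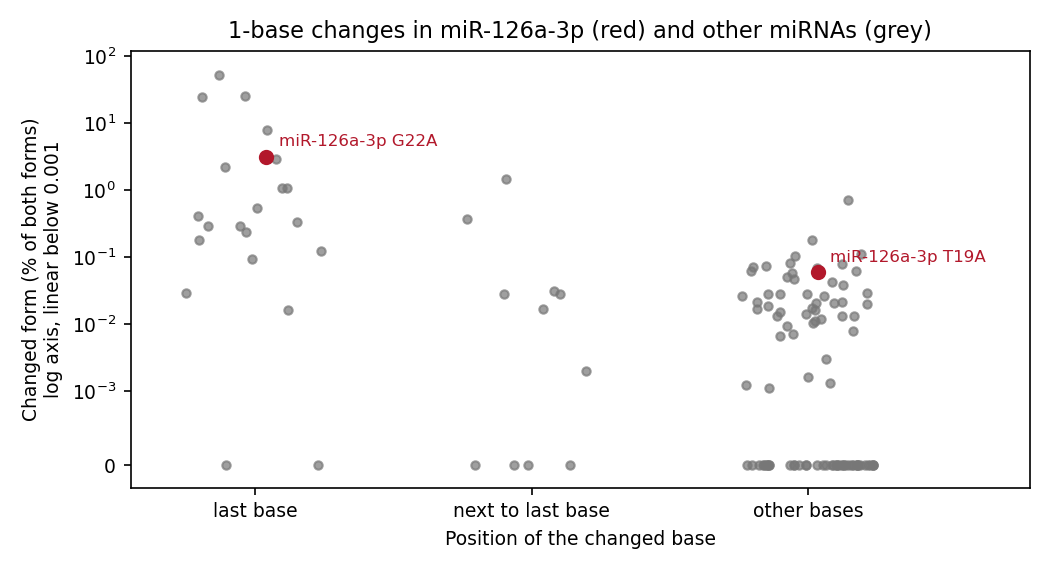
Share of a form with 1 changed base, in percent of the changed and unchanged forms (log axis, linear below 0.001), by position of the change, for miR-126a-3p (red) and other miRNAs (grey). G22A of miR-126a-3p stands at 3.16% among last-base changes and T19A at 0.0589% among changes at other bases.

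Other miRNAs with known roles in vessels were described from a list of 30, which includes the 4 members. Many of them are also made in other cell types. The list was chosen with earlier results of these data known, so its counts beside those of all mouse sequences are a description and not a test. Of the 30, 26 had mouse-entry reads and 24 had at least 10, with a median of 127.5 reads, against 546 and 303 of all 1963 mouse sequences and a median of 0. The list held 2.39% of mouse reads (2.38 to 2.41), of which miR-126a-3p made up 37.2%. By mouse entries miR-126a-3p was lower than miR-27b-3p, with 59356 reads against 60863. With end forms the order turned, at 134932 reads of miR-126a-3p and 77822 of miR-27b-3p. miR-27b, known from zebrafish for vessel sprouting, is co-transcribed with miR-23b-3p (3343 reads) and a copy of miR-24-3p (2664 reads). miR-100-5p, a repressor of mTOR, had 18091 reads, and miR-10a-5p, which restrains inflammatory signalling in human endothelial cells, had 5913. By mouse entries all others outside the members had fewer than miR-24-3p. With end forms miR-10a-5p (31706 reads) stood above miR-100-5p (24537), and miR-10b-5p (9021), named after its values were seen, stood above miR-24-3p (6873).

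Against markers of other cells, with end forms throughout, miR-126a-3p was above some and below other markers of each tissue cell type. Of the hepatocyte markers, it had 0.0348 times the reads of miR-148a-3p, 0.197 times those of miR-122-5p (0.196 to 0.198) and 1.64 times those of miR-192-5p (1.63 to 1.65). Of the muscle markers, it had 0.127 times the reads of miR-1a-3p (0.126 to 0.127), 1.53 times those of miR-206-3p (1.52 to 1.55) and 11.6 times those of miR-133a-3p (11.4 to 11.8). Of the stellate cell and fibroblast markers, it had 0.829 times the reads of miR-143-3p (0.823 to 0.835), 31.5 times those of miR-199a-5p and 681 times those of miR-214-3p. Its 134932 reads were above those of all 5 blood and immune markers. Of these the red cell miRNAs miR-451a and miR-486a-5p had 2635 and 3066 reads, and the leukocyte miRNAs miR-146a-5p, miR-142a-3p and miR-223-3p had 5906, 146 and 63. miR-126 is also made in platelets and blood stem cells, and their part in its level was not tested. In bulk tissue a change in the number of endothelial cells and in miR-126 per cell cannot be told apart.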

How the data were processed

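Small RNA libraries were made from total RNA of mouse liver by ligating adapters to both ends, PCR and selection of short inserts, per the labels' protocols. The deposited table gives raw counts of the reads of 1 cleaned library per mature miRNA entry of many species, per the file headers. The submitters' processing notes name mm10. How reads were matched and counted is not given in the sources used here. Its column matches the title of Cre-miR122 replicate 2. Entries of equal sequence had equal counts, and each distinct sequence was used once (8163802 reads in all).

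End forms are entries of other species that match mouse hairpins of GENCODE M21 (2202 hairpins) exactly and overlap 1 mature sequence most, by at least 15 nt. For miR-126 all of them bear that name. Base changes were sought in forms with at least 1000 reads, in entries found in no mouse hairpin. Intervals (95%) are exact, Clopper-Pearson for shares and, for ratios, from the binomial of both counts. Calculations were tested on simulated data. The planned tests between groups could not be run with 1 library. Members, lists and the rule for named miRNAs (members, their forms, the 5 highest others of the vessel list and neighbours in each order) were chosen with earlier results of these data known. miRNAs named as cell type markers come from a list of the same kind. miR-381-3p, miR-133a-3p, miR-101a-3p and the miRNAs named beside base changes were named after their values were seen. The tools were SciPy 1.17.1, NumPy 2.4.6 and pandas 2.3.3 under Python 3.11.15, with figures by matplotlib 3.10.9.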

Additional observations from a re-analysis of the deposited data

How the results depend on the processing

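The 4 members together held 0.908% of mouse reads. This became 1.697% with end forms, 0.741% of the reads of all distinct sequences and 2.16% when miR-148a-3p was left out of the total. The ratio of miR-126a-3p to miR-126a-5p was 51.5 by mouse entries alone in place of 99.2. With last-base changes counted in the arm, the mouse entry held 43.4% of miR-126a-3p in place of 44.0%. The G22A form held 1.41% of all reads of the arm in place of 3.16% of itself and the mouse entry. The vessel list held 3.845% with end forms in place of 2.39%. These moves follow from the reads that each alternative adds or removes. The other 4 of 11 alternatives, among them both for the share of shifted starts, stayed within the counting interval. With entries of any name in the hairpin the same reads were counted, so that share of shifted starts could not move. Leaving out each replicate was not run, since 1 library was analysed. No paired analysis was possible because the Cre libraries were not used and their numbers differ from those of the Cre-miR122 libraries. Depth limits miR-126b, with 1 read at most, and end forms that no entry records were not seen.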
